A study of Rattus norvegicus with 6 samples.

Results

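Lipocalin 2 and the genes that move iron through a cell were followed in primary rat Leydig cells, the testosterone-making cells of the testis, after contact with exosomes of Sertoli cells. The set holds 10 genes of the 15168 named on the array. They were chosen by their known role in iron handling, and the set was proposed with earlier results of these data in view, among them the lower Lcn2 signal of the exosome arrays. The difference between the groups is therefore given for these 10 genes as a description, without p-values. Where a probe of these genes is said to pass or miss a cut on the adjusted p-value, this too is a description. The lists of further genes were also chosen with earlier results of these data known, so their p-values are to be read in the same way. A probe belonged to a gene if its RefSeq accession carried that gene's symbol, which gave 15 probes, 5 genes with 1 probe and 5 with 2.

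The cells came from Sprague-Dawley rats and were grown in F12/DMEM medium with 10% fetal bovine serum, penicillin and streptomycin at 34 °C and 5% CO2. The exosome group (3 samples) had exosomes of primary rat Sertoli cells in the medium at 5 µg/ml for 24 h, and the untreated group (3 samples) had none. Each sample was read on 1 one-colour Agilent array, so the study compares Leydig cell transcripts with and without these vesicles. The labels number the samples 1 to 3 in each group but name no animals or cultures, so errors and p-values measure the spread between these samples, which may be technical.

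Iron enters most cells bound to transferrin, through the transferrin receptor, and leaves the endosome through a divalent metal transporter. Iron that is not used is stored inside ferritin shells or exported by ferroportin, beside which copper-containing ferroxidases such as ceruloplasmin oxidise it. A pair of iron regulatory proteins senses cytosolic iron and binds stem-loops in the mRNAs of ferritin, ferroportin and the transferrin receptor, which sets their translation or stability. Lipocalin 2 binds iron-loaded siderophores and is secreted by neutrophils and by many cell types in inflammation. In the testis, Sertoli cells secrete transferrin and ceruloplasmin, and steroid synthesis in Leydig cells runs on heme and iron-sulfur proteins.

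Lcn2 and Aco1 had the lowest differences of the 10 genes, and Cp, like Lcn2, encodes a secreted acute phase protein. The sequences just upstream of their RefSeq starts are shown because inflammatory factors are known to act on the promoters of Lcn2 and Cp, with Aco1 beside them as the other gene that was lower. Each is the 250 bases before the start, 5′ to 3′ on the gene's strand, from RefSeq (build GRCr8), at chr3:36081781-36082030 (minus strand) for Lcn2, chr2:104368420-104368669 (plus strand) for Cp and chr5:60055645-60055894 (plus strand) for Aco1. Capitals mark matches to the C/EBP pattern TTNNGNAA or to the NF-kB pattern, both searched on both strands.
Lcn2: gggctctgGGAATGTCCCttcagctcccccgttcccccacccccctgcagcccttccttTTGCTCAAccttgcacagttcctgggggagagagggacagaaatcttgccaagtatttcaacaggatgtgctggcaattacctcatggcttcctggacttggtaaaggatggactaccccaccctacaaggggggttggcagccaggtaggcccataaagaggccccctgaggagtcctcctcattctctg
Cp: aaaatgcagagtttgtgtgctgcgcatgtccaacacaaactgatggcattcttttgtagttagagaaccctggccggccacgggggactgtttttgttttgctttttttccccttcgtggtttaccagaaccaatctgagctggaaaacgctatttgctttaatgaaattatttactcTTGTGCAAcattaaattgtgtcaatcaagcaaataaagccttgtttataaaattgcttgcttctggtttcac
Aco1: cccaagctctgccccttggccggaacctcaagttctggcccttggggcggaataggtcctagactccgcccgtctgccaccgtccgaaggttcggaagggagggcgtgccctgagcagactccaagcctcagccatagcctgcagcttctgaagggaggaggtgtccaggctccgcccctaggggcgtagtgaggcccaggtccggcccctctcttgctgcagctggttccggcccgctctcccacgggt

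The Lcn2 window held 1 C/EBP match, 191 to 184 bases before the start on the opposite strand, and 1 NF-kB match, 242 to 233 bases before it, also on the opposite strand. The 2 matches did not overlap. The Cp window held 1 C/EBP match, 72 to 65 bases before the start, and no NF-kB match, and the Aco1 window held neither. Of 33469 windows of this length in the table, 37.2% held the C/EBP pattern and 6.33% the NF-kB pattern, so a match is a description of the letters only. The windows of Tfrc, Slc40a1, Slc11a2 (2 windows) and Ireb2 held neither pattern. The table gave windows for 7 of the 10 genes, and Fth1, Ftl1 and Slc11a1 were not among them.

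All 10 genes had a probe well above background on the 6 arrays. On the arrays 67.2% to 75.6% of gene spots were well above background, no spot was saturated, and the 75th percentile of the processed intensity, to which each array was scaled, ran from 753 to 1061. Scaled values are log2, with 0 at that percentile of the same array, and differences are exosome minus untreated ± SE from limma with n = 3 per group. The median difference over all 10979 genes tested was −0.19 on this scale and 0.01 after quantile normalization, so a difference near these values is one that the whole array shared. The untreated arrays carried 1 scan time, exosome 1 and 2 another and exosome 3 one of its own, so scan time and treatment cannot be told apart. The labelled cell type was borne out in part. Star, Cyp11a1, Insl3 and Hsd3b1 were well above background on all 6 arrays, while Lhcgr and Nr5a1 were so on none. Cyp17a1 was dim (18.6 to 31.1) and well above background on 5 arrays, and Hsd17b3 was too dim to be tested. Transcripts of macrophages were present too, since 14 of 15 macrophage markers were tested, and a difference per cell and a difference in the share of a cell type cannot be told apart in these bulk samples.

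Of the 10 genes, each taken by its brightest tested probe, 2 were higher (Slc11a2, Slc40a1) and 2 lower (Lcn2, Aco1) in exosome-treated cells at an adjusted p below 0.05, and 6 did not pass. The set was proposed with results of this contrast in view, so these calls are a description and no test of the 10 genes. Among all genes 14.6% were called higher and 29.2% lower. The groups did not overlap in 4 of the 10 genes, against 62.0% of all genes. The median difference of the 10 genes was −0.01 and that of all genes −0.19. Under quantile normalization the counts were 3 higher and 2 lower, Ireb2 being the added one, and the medians were 0.03 and 0.01.

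**Figure D1:**
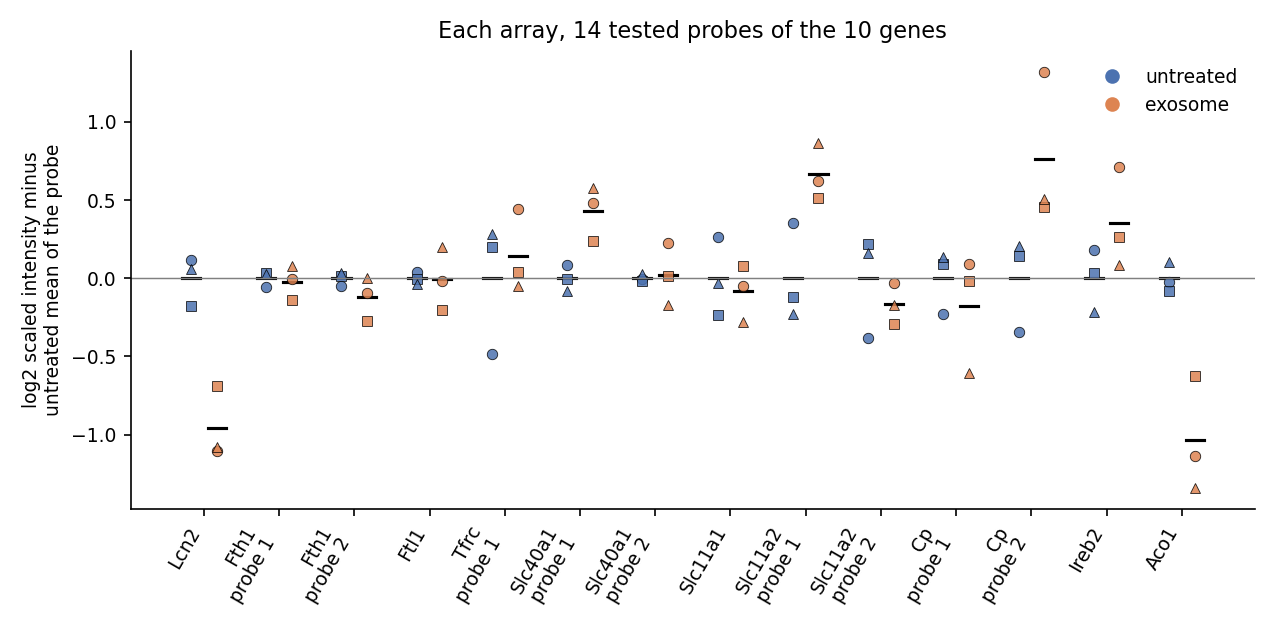
Scaled log2 intensity of each array minus the untreated mean of the same probe, for the 14 tested probes of the 10 genes; circles, squares and triangles are replicates 1, 2 and 3 and bars are group means. The 3 exosome arrays lie below the 3 untreated arrays for Lcn2 and Aco1 and above them for 1 probe each of Slc40a1, Slc11a2 and Cp.

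Lcn2, the secreted protein that withholds iron from microbes by binding their siderophores, was lower on every exosome array. Its processed intensity was 9018, 6566 and 7482 on untreated 1 to 3 and 4455, 6264 and 3878 on exosome 1 to 3. Exosome 2 came closest to the untreated arrays, yet the groups did not overlap even before scaling. On the scaled log2 axis the untreated arrays stood at 3.37, 3.08 and 3.31 and the exosome arrays at 2.15, 2.56 and 2.17. The means were 3.25 ± 0.16 (SD, n = 3) and 2.30 ± 0.23 (SD, n = 3), a difference of −0.96 ± 0.16 (SE), or 1.94-fold lower. Relative to the median of all genes the difference was −0.77, and 10.3% of all tested genes had a lower difference than Lcn2. Across the 5 scalings it ran from −0.99 to −0.73, and without any 1 array from −1.09 to −0.89. In the authors' deposited log2 table its values were 13.20, 12.91 and 13.12 in untreated cells and 11.97, 12.42 and 11.86 in exosome-treated cells, again without overlap. No other probe was named Lcn2 through a RefSeq accession.

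**Figure D2:**
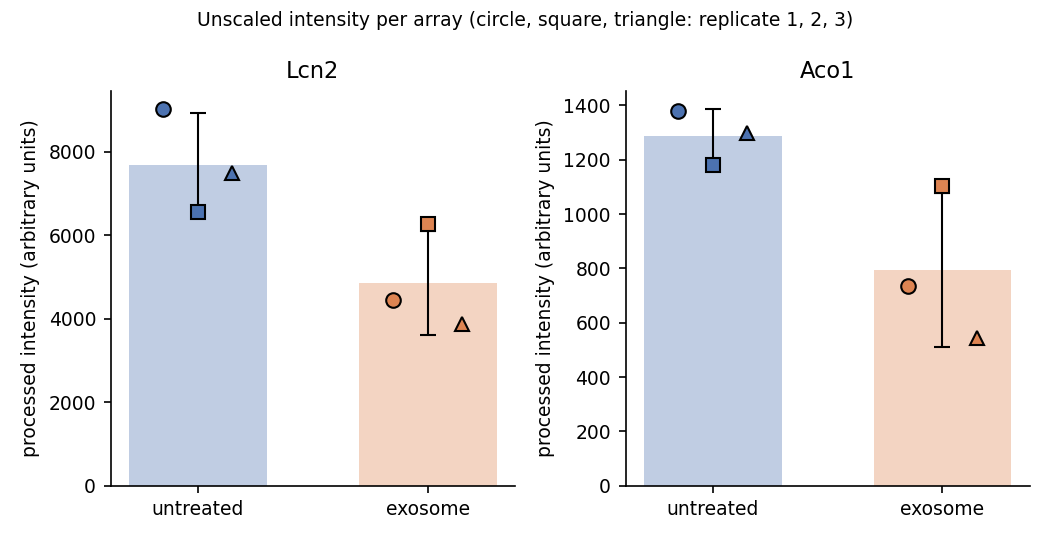
Unscaled processed intensity (arbitrary units) of Lcn2 and Aco1 on each array; bars are group means, error bars SD (n = 3), and circles, squares and triangles are replicates 1, 2 and 3. For both genes the 3 exosome arrays lie below the 3 untreated arrays, with exosome 2 the highest of the 3 (6264 for Lcn2 and 1104 for Aco1).

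Lcn2 transcripts are typical of neutrophils. Of 11 neutrophil markers only Elane, Fcnb and Camp were tested, of which Elane and Fcnb fell (−0.71 ± 0.14 and −0.55 ± 0.13, adjusted p = 0.014 and 0.020) and Camp rose (0.46 ± 0.15, adjusted p = 0.045). Among all genes 29.2% fell and 14.6% rose. Under quantile normalization Elane (−0.48) and Fcnb (−0.14) missed the test, and all 3 genes missed it without untreated 2 or without exosome 1. Ltf, Mmp8 and Ngp were well above background on no array, and S100a8 and S100a9 were too dim to be tested. The summed level of the 3 tested markers was 0.67 to 0.69 in untreated cells and 0.59 to 0.76 in exosome-treated cells, in units of the array's 75th percentile. Their part in the Lcn2 difference was not tested.

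Over the 6 arrays, the 5 genes whose scaled values correlated best with Lcn2, out of 9536 others well above background on every array, were Cyb5r3, Arhgdia, Cog8, Qars1 and Nbl1. Cyb5r3 encodes a cytochrome b5 reductase (r = 0.998) and Qars1 a glutaminyl-tRNA synthetase (r = 0.997). Arhgdia had r = 0.998, Cog8 belongs to a Golgi tethering complex (r = 0.997) and Nbl1 is a secreted BMP antagonist (r = 0.996). These points share the same 6 arrays in 2 groups, so any gene that differs between the groups correlates strongly, and the values are a description. Cyb5r3 also stood lower in exosome-treated cells by 1.12, whereas the difference of Qars1 was −0.28. Aco1 ranked 301st by this measure (r = 0.977), while Slc40a1 (r = −0.94) and Slc11a2 (r = −0.81) ran the opposite way.

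Among the receptors and partners of lipocalin 2, Mmp9 fell, and the other 3 tested did not pass by their brightest probes. Mmp9, the gelatinase that forms a complex with lipocalin 2, was at 153, 91.4 and 94.1 in untreated cells and 61.1, 97.6 and 48.8 in exosome-treated cells. Its unscaled intensities overlapped, its scaled values did not, and the difference was −1.005 ± 0.24 (adjusted p = 0.021). It missed the test under quantile normalization (−0.65), in the authors' table (−0.65) and without untreated 2, without untreated 3, without exosome 1 and without exosome 3. Slc22a17, a receptor of lipocalin 2, had a difference of 0.17 ± 0.15 (adjusted p = 0.391), and Lrp2, the endocytic receptor megalin, 0.19 ± 0.13 (adjusted p = 0.285). This Lrp2 probe was called under quantile normalization (0.66), with median centring (0.42) and in the authors' table (0.66). It was dim, and the normexp correction gave −0.10. The other Lrp2 probe, well above background on 3 of the 6 arrays, was higher past the test (1.81 ± 0.42). Bdh2, which takes part in making the mammalian siderophore, had −0.14 ± 0.15 (adjusted p = 0.481). By their brightest probes 0 of these 4 genes were higher by limma, also at an unadjusted p below 0.05. Among all genes limma called 14.6% higher and 29.2% lower.

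On the entry side only Slc11a2 was called, and only by 1 of its 2 probes. Slc11a2 encodes the divalent metal transporter that carries iron out of the endosome. Its brighter probe read 517, 333 and 298 without exosomes and 717, 703 and 728 with them, so that every exosome array lay above every untreated one. The scaled difference was 0.67 ± 0.19, or 1.59-fold, with untreated 1 the nearest to the exosome arrays. The other probe read 121, 164 and 152 against 177, 156 and 138, with scaled values that overlapped and a difference of −0.17 ± 0.19. Its sign turned with the scaling, being above 0 in 3 of the 5 scalings and below 0 in 2 (−0.18 to 0.10). The brighter probe was higher in all 5 scalings (0.57 to 0.90) but not past the test without untreated 2, without untreated 3, without exosome 1 (0.69) or without exosome 3 (0.57). Nor did it pass with no filter on dim probes or with the replicate number as a block.

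Tfrc, the transferrin receptor that brings iron into dividing and iron-poor cells, was dim. One probe read 69.6, 100.2 and 102.4 in untreated cells and 152.6, 121.9 and 93.0 in exosome-treated cells, with overlapping groups and a difference of 0.15 ± 0.25. Untreated 1 was the lowest array, and without it the difference was −0.10. The second Tfrc probe was well above background on none of the 6 arrays and was not tested. Slc11a1, the metal pump of macrophage phagosomes, overlapped fully between the groups, at 1698, 1076 and 1196 in untreated cells against 1574, 1820 and 1148 in exosome-treated cells, with a difference of −0.08 ± 0.17. Of the 14 macrophage markers tested, 0 rose and 5 fell by limma (1 and 6 at an unadjusted p below 0.05). Among all genes 14.6% rose and 29.2% fell. Under quantile normalization 1 marker rose and 3 fell. The complement genes C1qc (−0.82 ± 0.15, adjusted p = 0.012) and C1qa (−0.63 ± 0.13, adjusted p = 0.013) fell, but both missed the test without untreated 2. C1qb, of the same list, had a difference of 0.00 ± 0.13 (adjusted p = 0.982). By their other probes Csf1r (−1.09 ± 0.21) and Fcer1g (−0.64 ± 0.13) fell past the test and Aif1 (−0.13 ± 0.14) did not pass. The brighter Csf1r probe had 0.05 ± 0.20. The summed macrophage level was 70.9 to 76.9 in untreated and 65.8 to 71.4 in exosome-treated cells, where 1 marker set the low end. Cd68 read 78.5 on exosome 3 and 7930 to 10784 on the other 5 arrays. Without Cd68, a sum added after the values were seen, the ranges were 61.8 to 66.4 and 59.1 to 65.7, and their part in the values of Slc11a1 was not tested.

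The ferritin chains, which form the shell that stores iron, overlapped between the groups after scaling. Fth1, the heavy chain with the ferroxidase site, read 64611, 61254 and 58966 in untreated cells and 77063, 74055 and 69743 in exosome-treated cells by its brighter probe. The unscaled intensities thus lay higher on all exosome arrays, as did the 75th percentile of exosome 1 and 2, and after scaling the groups overlapped at 6.27 ± 0.05 and 6.24 ± 0.11 (SD, n = 3). The scaled differences were −0.02 ± 0.11 and −0.12 ± 0.12 for its 2 probes. Ftl1, the light chain that aids mineral formation, read 61339, 53239 and 50259 against 67960, 63102 and 67628, with a scaled difference of −0.01 ± 0.14. The sign of the 3 ferritin probes turned with the scaling, and their differences ran from −0.12 to 0.23 over the 5 scalings. The RefSeq table lists 6 further symbols of the form of an Fth1 copy or pseudogene and 21 of Ftl1, so signal from near-identical copies cannot be told from that of the 2 genes. Ncoa4, the receptor that delivers ferritin to lysosomes for breakdown, fell by 0.87 (SE 0.16, adjusted p = 0.012), from 354, 426 and 328 in untreated cells to 258, 298 and 190, but missed the test without untreated 2.

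On the export side, Slc40a1, or ferroportin, the iron exporter of animal cells, was higher by one probe. That probe read 326, 274 and 251 in untreated cells and 493, 442 and 453 in exosome-treated cells, without overlap, and the scaled difference was 0.43 ± 0.13, or 1.35-fold. Its other probe read 224, 199 and 198 against 304, 277 and 197, with scaled groups that overlapped around a difference of 0.02 ± 0.14. The first probe was higher in all 5 scalings (0.38 to 0.66) and in the 6 fits without 1 array (0.36 to 0.53). It missed the test without exosome 1, without exosome 3, without untreated 2 and without untreated 3. It also missed it with no filter on dim probes, with the replicate number as a block and with scan time as a random block (0.44).

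Cp, the ferroxidase ceruloplasmin, gave opposite signs by its 2 probes. The sign of the brighter one turned with median centring (0.05) and without exosome 3 (0.04). The brighter one read 296, 331 and 330 in untreated cells and 426, 417 and 225 in exosome-treated cells, with overlap and a difference of −0.18 ± 0.22. The other read 166, 208 and 210 against 607, 352 and 296, so that all exosome arrays lay above all untreated ones, with a difference of 0.76 ± 0.28 that did not pass the test and was 0.48 without exosome 1. This probe was called in the other 4 scalings, from 0.60 with the normexp correction to 0.99 with median centring. Tf, transferrin itself and like Cp a product of Sertoli cells, had a difference of 0.17 ± 0.15 (adjusted p = 0.385) with overlapping groups. Of 11 Sertoli cell markers tested, by the brightest probe of each, Wt1 was higher and Clu and Cst12 were lower (−1.02 ± 0.18 and −0.98 ± 0.20, adjusted p = 0.012 and 0.015). Among all genes 14.6% were higher and 29.2% lower. Cst12 missed the test under quantile normalization (−0.37), and both Cst12 and Wt1 (0.49 ± 0.14, adjusted p = 0.032) missed it without untreated 2 or without untreated 3. Cst12 was near the floor, at 17.1, 17.5 and 21.0 in untreated cells and 14.5, 12.3 and 8.2 in exosome-treated cells. It was well above background on 3 untreated arrays and 1 exosome array, and the normexp correction gave −0.36. The other 2 Wt1 probes fell past the test (−1.16 ± 0.28 and −1.09 ± 0.20), and the other probe of Inhbb rose past it (2.34 ± 0.46), so these markers gave no common direction. The summed Sertoli level was 100.5 to 111.1 in untreated and 81.1 to 104.6 in exosome-treated cells, and its part in the Cp values was not tested.

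**Figure D3:**
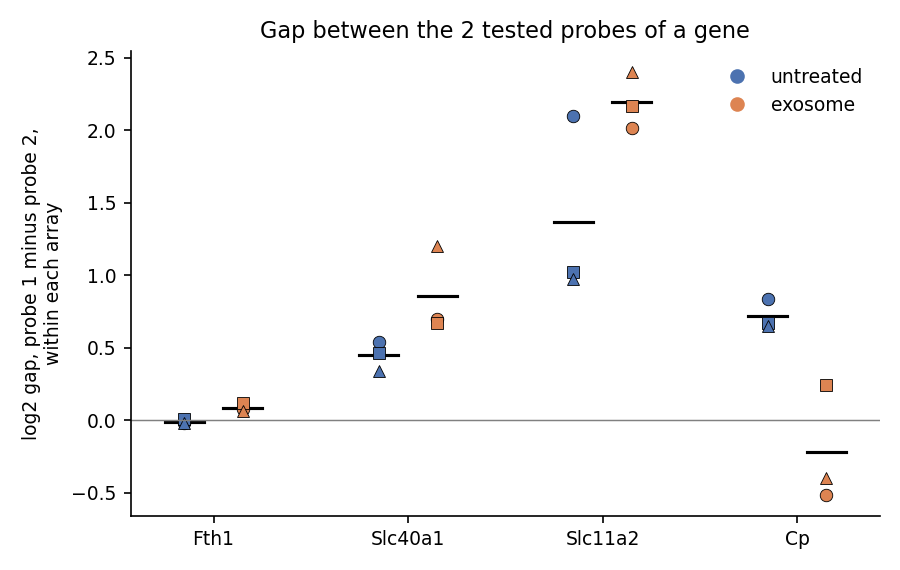
Gap in log2 intensity between the 2 tested probes of a gene within each array, a quantity that does not depend on how arrays are scaled by a constant; circles, squares and triangles are replicates 1, 2 and 3 and bars are group means. For Cp the gap was positive on all 3 untreated arrays and negative on exosome 1 and 3.

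The gap between the 2 tested probes of a gene on the same array did not overlap between the groups for Cp, Slc40a1 and Fth1 and did for Slc11a2. Within an array the gap between the probes of Cp was 0.84, 0.67 and 0.65 in untreated cells and −0.51, 0.24 and −0.40 in exosome-treated cells. The Slc40a1 gap was 0.54, 0.46 and 0.34 against 0.70, 0.67 and 1.20, again without overlap. For Slc11a2 it was 2.10, 1.02 and 0.97 against 2.02, 2.17 and 2.40, where untreated 1 lay among the exosome arrays. The Fth1 probes moved nearly together, with a mean gap of −0.01 in untreated and 0.09 in exosome-treated cells. The files name both probes of each pair by 1 RefSeq accession and do not place them on the transcript, so which transcript forms they read was not tested. Over the array, 1493 genes had exactly 2 tested probes, and in 753 of them 1 probe passed the test and the other did not. In 265 both passed, in the same direction for 143 and in opposite directions for 122, so a call for a gene holds for the probe it was read from.

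The iron sensors were measured by 1 probe each. Aco1 encodes the cytosolic aconitase that, when it loses its iron-sulfur cluster, turns into iron regulatory protein 1. It was spotted 10 times per array, and between 9 and 10 spots were used after outlier spots were left out. The mean intensity was 1378, 1180 and 1300 in untreated cells and 734, 1104 and 544 in exosome-treated cells, without overlap. Spots of 1 array agreed closely, with an SD of 0.03 to 0.08 on the log2 scale, against an SD of 0.37 among the 3 exosome arrays and 0.10 among the untreated ones. The scaled difference was −1.03 ± 0.20, or 2.05-fold lower, and 8.3% of all tested genes had a lower one. It ran from −1.03 to −0.80 over the 5 scalings and from −1.24 to −0.88 without 1 array, and missed the test without untreated 2 and without untreated 3. Ireb2, iron regulatory protein 2, which is broken down when iron is plentiful, was dim, at 35.6, 28.6 and 23.3 in untreated cells and 59.1, 45.6 and 32.7 in exosome-treated cells. After scaling the groups overlapped, at −4.62, −4.77 and −5.01 against −4.09, −4.54 and −4.71, and the difference was 0.35 ± 0.20. That difference depended on the scaling, from 0.06 with the normexp correction to 0.85 with quantile normalization. Fbxl5, the ligase that removes Ireb2 protein, was not among the named genes on the array.

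**Figure D4:**
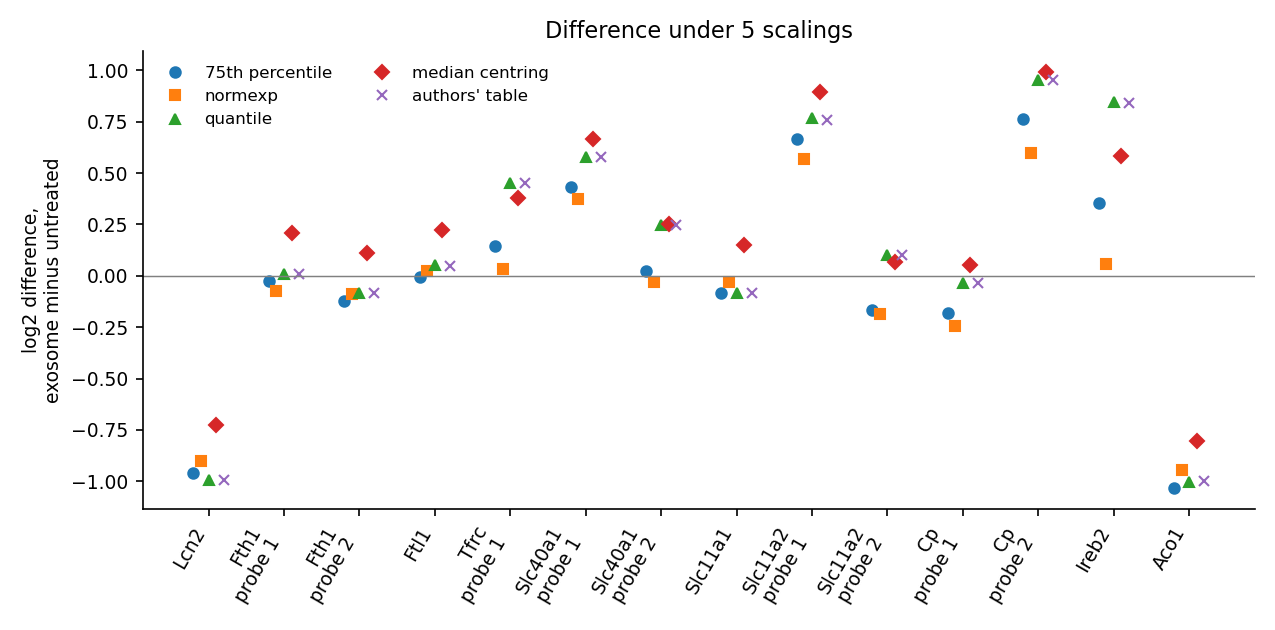
Log2 difference, exosome minus untreated, of the 14 tested probes under 5 scalings of the arrays, each marked by its own symbol. For 7 of the 14 probes the sign was the same in all 5 scalings, and Lcn2 and Aco1 lay between −1.03 and −0.73 throughout.

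Beyond these 10 genes, a list of iron, heme, iron-sulfur and acute phase genes was set up by function, with earlier results of these data known. Of its 107 genes, 91 were tested, and limma called 14 higher (15.4%) and 25 lower (27.5%), shares close to those of all genes. Their median difference was −0.12, against −0.19 for all genes. Quantile normalization gave 19 higher and 16 lower. The counts changed with the array left out. They were 0 higher and 6 lower without untreated 2, 0 and 9 without untreated 3, and 0 and 11 without exosome 1. They were 5 and 17 without exosome 3, 12 and 27 without untreated 1, and 16 and 24 without exosome 2. At an unadjusted p below 0.05, 17 were higher and 31 lower with all arrays. Those counts were 12 and 26 without untreated 2, 12 and 25 without untreated 3, and 14 and 25 without exosome 1. Hamp, Slc46a1, Hpx, Nubp1, Ndor1 and Saa4 were lower past the test in all 5 scalings and all 6 fits without 1 array. They are 6 of the 91 genes, and 0 were higher throughout. By the same rule 779 of all 10979 genes were kept, 662 lower and 117 higher, a similar share.

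Of 24 genes of iron uptake, storage, export and their control, 5 were higher and 8 lower, with a median difference of −0.33, and quantile normalization gave 6 and 3. The shares of all genes were 14.6% higher and 29.2% lower, and 20.2% and 16.1% under quantile normalization. Hamp, the hormone hepcidin that makes ferroportin leave the cell surface, had the smallest p. It read 931, 877 and 883 in untreated cells and 503, 708 and 388 in exosome-treated cells, and fell by 1.07 (SE 0.17, adjusted p = 0.010). Snx3, which recycles the transferrin receptor from endosomes, fell by 0.76 (SE 0.15, adjusted p = 0.013) but missed the test without untreated 2 and without untreated 3. Steap3, the endosomal ferrireductase that acts before Slc11a2, had a difference of −0.46 ± 0.27 (adjusted p = 0.205). A pair of further genes is named after its values were seen. Heph, a ferroxidase related to Cp, rose by 0.68 ± 0.14 (adjusted p = 0.014), and Slc39a14, a transporter of iron not bound to transferrin, by 0.73 ± 0.16 (adjusted p = 0.016), while the other probe of Slc39a14 fell past the test (−0.67 ± 0.17). Heph and Slc39a14 missed the test without exosome 1, without untreated 2 and without untreated 3.

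**Figure D5:**
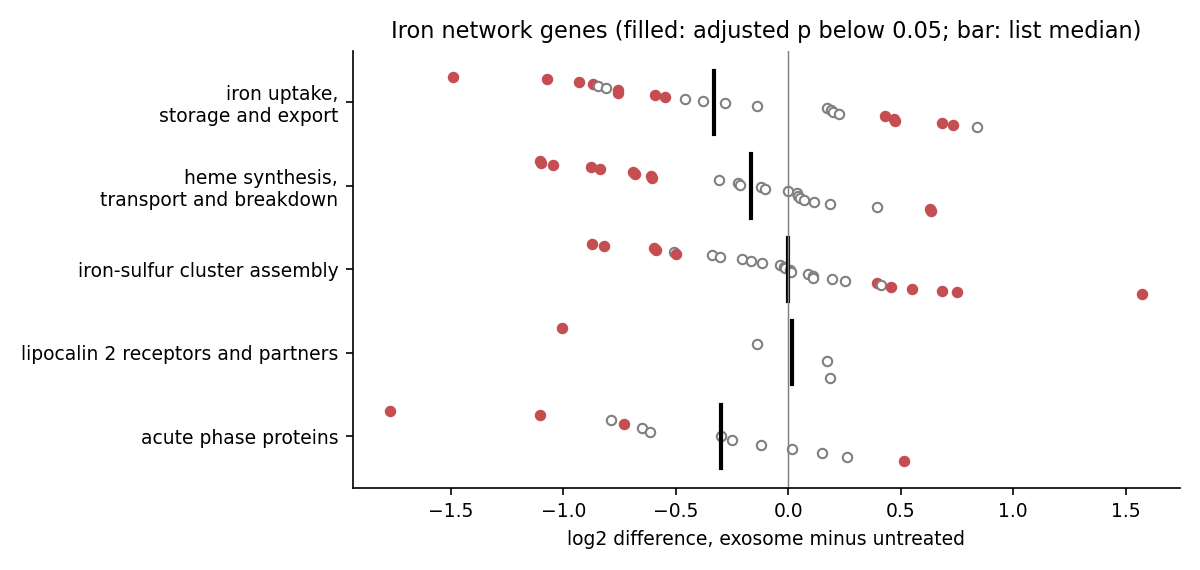
Log2 difference, exosome minus untreated, of each tested gene of the 5 functional lists, 1 point per gene; filled points have an adjusted p below 0.05 and the vertical bar is the list median. Calls lie on both sides of 0 in every list but that of lipocalin 2 partners, and the median is −0.33 for uptake, storage and export and 0.00 for iron-sulfur assembly.

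Of 24 heme genes, 2 were higher and 9 lower, with a median difference of −0.17, and quantile normalization gave 4 and 6. Among all genes 14.6% were higher and 29.2% lower, with a median of −0.19, and quantile normalization gave 20.2% and 16.1%. Slc46a1, which carries heme and folate across membranes, read 122, 114 and 102 in untreated cells and 62.5, 81.7 and 50.4 in exosome-treated cells, and fell by 1.1004 (SE 0.14, adjusted p = 0.0098). Hpx, the heme scavenger hemopexin and itself an acute phase protein, fell by 1.105 (SE 0.17, adjusted p = 0.010), from 3300, 3258 and 3765 to 1893, 2496 and 1542. Alas2, the heme synthesis enzyme of red cells, fell by 0.61 (SE 0.10, adjusted p = 0.011) but missed the test under quantile normalization (−0.25) and without untreated 2. Of 3 red cell markers tested, Alas2 passed by its brightest probe, and the other probe of Ahsp, a hemoglobin chaperone, also fell past the test (−0.45 ± 0.14). Hmox1, the heme oxygenase that frees iron from heme, fell by 0.68 (SE 0.19, adjusted p = 0.028). It missed the test after median centring (−0.45) and without exosome 1, without exosome 3, without untreated 2 and without untreated 3.

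Of 28 genes of iron-sulfur cluster assembly, 6 were higher and 5 lower, with a median difference of 0.00, and quantile normalization gave 7 and 5. The shares of all genes were 14.6% higher and 29.2% lower, and 20.2% and 16.1% under quantile normalization. Ndor1 and Nubp1, both of the cytosolic assembly path that serves proteins outside mitochondria, fell by 0.82 (SE 0.13, adjusted p = 0.010) and 0.87 (SE 0.16, adjusted p = 0.012). Nfu1, a mitochondrial cluster carrier, fell by 0.60 (SE 0.13, adjusted p = 0.016) and missed the test without exosome 1, without untreated 2 and without untreated 3. Other genes of the list rose, among them Ciapin1 (0.75 ± 0.18, adjusted p = 0.022) and Iba57 (1.57 ± 0.34, adjusted p = 0.016). Both missed the test without exosome 1, without untreated 2 and without untreated 3, and Ciapin1 also without exosome 3. The other probes of Iba57 did not pass (−0.35 ± 0.31 and 0.02 ± 0.11). Of 13 acute phase genes tested, 1 was higher and 3 lower, against 14.6% and 29.2% of all genes. Saa4, a serum amyloid protein, fell by 1.77 (SE 0.28, adjusted p = 0.010), from 74.8, 73.9 and 84.3 to 20.7, 27.5 and 37.0, although the normexp correction gave −0.86. A2m, a protease inhibitor, rose by 0.51 ± 0.13 (adjusted p = 0.025), while its other probe had −0.23 ± 0.12, and it missed the test without untreated 2, without untreated 3, without exosome 1 and without exosome 3. Among 9 Leydig cell markers tested 0 rose by limma by their brightest probes, also at an unadjusted p below 0.05. By limma 14.6% of all genes were higher. Cyp11a1, a heme enzyme that depends on iron-sulfur electron carriers, fell by 0.86 (SE 0.12, adjusted p = 0.0098). Scarb1, a receptor for cholesterol-carrying lipoprotein, had 0.37 by its brighter probe, which did not pass, and fell past the test by the other (−0.91 ± 0.11). The iron-sulfur protein Fdx1, which passes those electrons to Cyp11a1, had a difference of 0.11 ± 0.11 (adjusted p = 0.440).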

How the data were processed

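Total RNA of 3 exosome-treated and 3 untreated samples was read on 1-colour Cy3 arrays. Per the file headers, each file holds the intensity of 44254 spots from Agilent Feature Extraction 11.0.1.1 (1377 controls). Per the file headers, that software fitted a spatial trend and subtracted background on each array; no step between arrays is recorded there. The authors also deposited a log2 table; all its columns have the median 5.68, and it was taken as quantile normalized, a step not stated in the sources used here. It served as an alternative.

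Spots marked as outliers (388 to 572 per array) were left out, spots of a probe were averaged on the log2 scale, and the array's 75th percentile was subtracted. Probes well above background on at least 3 of 6 arrays were tested (20433 of 30367, 67.3%) with limma 3.58.1 in R 4.3.3 (prior degrees of freedom 2.60), with Benjamini-Hochberg adjustment over all of them and calls at an adjusted p-value below 0.05. A gene is its brightest tested probe. The code was tested on simulated data. The number of arrays limits precision. Symbols came from RefSeq accessions (GRCr8 table; the array was designed on rn4), which named 18005 probes.

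The 10 genes and all lists were chosen with earlier results of these data known. The text names, by rule, the 10 genes, the up to 3 genes of smallest p past the test in each of 5 functional lists, up to 2 in each of 5 marker lists, Tf, Hmox1, Slc22a17, Ncoa4, Fbxl5, Steap3 and Hamp, and the 5 genes most correlated with Lcn2. The other genes named were picked after their values were seen. Alternatives were normexp (offset 50, run on the median spot signal because the files hold no mean signal), quantile normalization, median centring, the authors' table, no filter and a stricter one, leaving out each array, the replicate number as a block, scan time as a random block and the mean or the other probe of a gene. The motifs were chosen after the values were seen.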

Additional observations from a re-analysis of the deposited data

How the results depend on the processing

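The number of calls depended on the scaling and on which array was left out, while the Lcn2 difference was below 0 in every alternative run (−0.99 to −0.73 over the 5 scalings, the smallest with median centring, and −1.09 to −0.89 without 1 array). All genes called higher numbered 1598 and ranged from 134 to 1725 without 1 array; they were 2756 with median centring, 864 with no filter on dim probes and 768 with the replicate number as a block. Genes called lower numbered 3208 and ranged from 820 to 3294 without 1 array; they were 1766 with quantile normalization, 1782 in the authors' table and 1856 with median centring. Of the iron, heme, iron-sulfur and acute phase genes, the 14 higher became 22 with median centring, 7 with no filter, 4 with the replicate block, 8 with the mean of all probes of a gene and 0 to 16 without 1 array. The 25 lower became 16 with quantile normalization, 16 in the authors' table, 13 with median centring and 6 to 27 without 1 array. Where 0 were higher by limma (without untreated 2, untreated 3 or exosome 1), 12, 12 and 14 were higher at an unadjusted p below 0.05. Slc11a2 had −0.17 by its other probe, a difference that was above 0 in 3 of the 5 scalings. The cause of these shifts was not tested. Same-numbered arrays did not deviate together (r = −0.09, −0.03 and −0.02). With 3 arrays per group these values cannot tell whether same-numbered samples share a culture or animal, and the labels do not say. With the replicate block Slc40a1 (0.43) and Slc11a2 (0.67) were not called. Dim probes have little signal over background, and the differences of Tfrc and Ireb2 were 0.03 and 0.06 under the normexp correction.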
